A study of Danio rerio with 16 samples.

Results

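The genes described are nr3c1 (ENSDARG00000025032), nr3c2 (ENSDARG00000102082) and fkbp5 (ENSDARG00000028396), which are 3 of the 22994 zebrafish genes in the expression table. They were taken by gene identifier, with earlier results of these data known. All 3 passed the filter on low expression (a mean of at least 5 normalized counts, met by 21686 genes). The nr3c1 gene encodes the glucocorticoid receptor (GR), nr3c2 encodes the mineralocorticoid receptor (MR), and fkbp5 encodes an immunophilin of the FK506-binding family. The question was how the receptor transcripts and fkbp5 move, across the groups and from pool to pool, in larvae that lack a functional GR.

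Both receptors are cytoplasmic proteins that bind cortisol, enter the nucleus and act as transcription factors at hormone response elements. Unliganded GR is held in a complex with the Hsp90 chaperone and co-chaperones. In mammals FKBP5 joins that complex and lowers the affinity of GR for hormone, and the FKBP5 gene is itself a direct GR target, so that receptor and target form a negative feedback loop. Teleosts are thought to lack aldosterone, and cortisol serves as a ligand of both receptors.

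RNA was sequenced from 16 pools of 8 whole larvae at 5 dpf, with 4 pools in each of 4 groups. All larvae came from crosses of AB-strain carriers of GR369-, a frameshift deletion in nr3c1 that ends the reading frame upstream of the DNA-binding domain. They were sorted a day before collection by visual background adaptation (VBA), a GR-dependent dispersal of melanophores. VBA- pools consist of homozygous mutants and VBA+ pools of their wild type and heterozygous siblings, mixed, and each class was raised in vehicle (DMSO) or in 1 uM cortisol. All pools of a group were collected in turn from a dish of that condition, so dish and order of collection cannot be told apart from group, and p-values measure the spread between such pools. In pooled whole larvae, fewer expressing cells and less RNA per cell cannot be told apart.

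Values are normalized counts, which the authors had adjusted so that every library sums to 14653434, and differences are on the scale of log2(normalized count + 0.1). Sequencing depth is therefore unknown and no counting error could be given. Transcripts of lens (cryba1l1), retina (rho), exocrine pancreas (prss1), liver (fabp10a) and brain (gfap) were present in every library, at 1592 normalized counts or more except for 2 further genes that share the rho symbol, whose lowest values were 52 and 48. A muscle marker, mylpfa, was not matched. The libraries of VBA- larvae in cortisol stood in separate places on the first principal component (47.6% of the variance), with scores of -85.1 and -109 for replicates 1 and 2 and of 91.6 and 65.4 for replicates 3 and 4. VBA+ cortisol libraries 1 to 4 had scores of 98.7, 94.6, 37.8 and 10.3. The gfap level, a glial marker, was 2248 to 2831 normalized counts in VBA- vehicle libraries and 2958 to 3946 in VBA+ vehicle libraries, without overlap. In cortisol the liver gene fabp10a did not overlap either, with 3862 to 4382 in VBA- and 4656 to 5092 in VBA+ libraries. Of all genes tested, 3.6% in vehicle and 1.76% in cortisol had VBA- libraries below all VBA+ libraries. In cortisol 3 of the 7 organ marker genes were lower in VBA- at an unadjusted p under 0.05 in limma. Over all genes tested 7.84% had such a p, in either direction. The part of these organ markers in the results below was not tested.

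The nr3c1 transcript carries the mutation. Gene-level counts do not see the deletion itself, since reads from the rest of the transcript are counted in both genotypes. In VBA+ vehicle libraries 1 to 4 nr3c1 had 732, 685, 590 and 580 normalized counts. The VBA- vehicle libraries had 511, 356, 643 and 343. Of these, replicate 3 lay inside the VBA+ range at 99.9% of the VBA+ geometric mean, and the other 3 lay below it at 53.3% to 79.4%. In cortisol, VBA+ libraries had 720, 694, 772 and 670 normalized counts of nr3c1. The VBA- cortisol libraries had 592, 412, 352 and 228, so that these groups did not overlap, and single pools stood at 32.0% to 83.0% of the VBA+ geometric mean. Non-overlap in this direction was found for 1.76% of the 21686 genes tested in cortisol and for 3.6% in vehicle.

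For the MR gene, nr3c2, the libraries of all groups overlapped. VBA+ vehicle libraries had 44, 48, 44 and 34 normalized counts, and VBA- vehicle libraries had 37, 40, 46 and 66. With cortisol the values were 65, 54, 46 and 51 in VBA+ and 41, 48, 79 and 58 in VBA- libraries. The highest nr3c2 value of each VBA- group, in vehicle replicate 4 and in cortisol replicate 3, exceeded every VBA+ library of the same treatment. The mean of nr3c2 over all libraries, 50.1 normalized counts, is under the 75 that a call requires, so it could not be called in any comparison. The study glosses that limit as a mean of 5 per sample, which nr3c2 passes, and read that way nr3c2 would not have been called either, since its adjusted p in limma was above 0.05 in every comparison.

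Expression of fkbp5 separated most VBA- pools from VBA+ pools, with 1 exception in each treatment. In vehicle, VBA+ libraries 1 to 4 had 508, 342, 420 and 492 normalized counts. VBA- vehicle libraries had 420, 64, 63 and 38, so that replicate 1 stood at 96.5% of the VBA+ geometric mean and the other pools at 8.75% to 14.7%. In cortisol, fkbp5 was at 391, 711, 608 and 672 normalized counts in VBA+ libraries. VBA- cortisol libraries had 494, 123, 101 and 10. Replicate 1 was again inside the VBA+ range, at 85.1% of the geometric mean, and the others were at 1.74% to 21.2%.

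**Figure D1:**
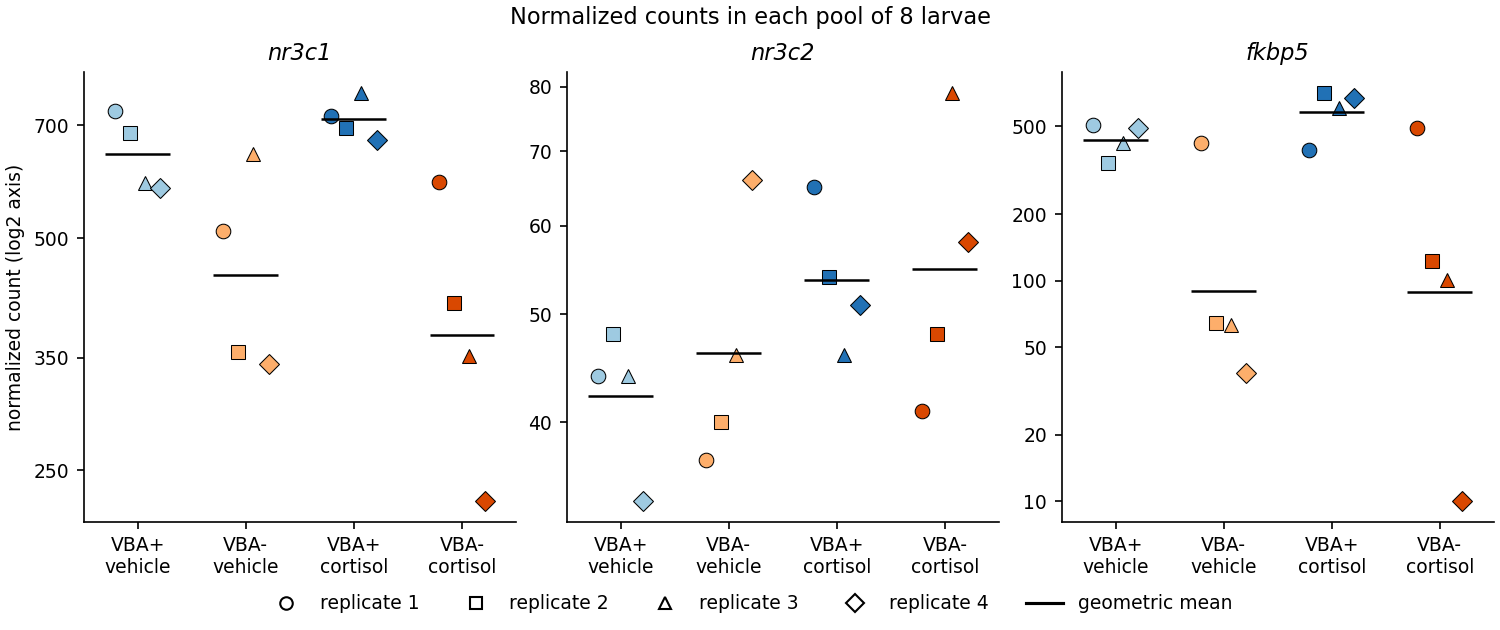
Normalized counts (log2 axis) of nr3c1, nr3c2 and fkbp5 in each library of the 4 groups, with a marker shape per replicate number and a bar at the geometric mean of 4 libraries. In both VBA- groups fkbp5 of replicate 1 (420 and 494) sits among the VBA+ libraries and the other 6 values lie between 10 and 123.

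The VBA- replicate 1 libraries were checked against their genotype label with the genes called between genotypes in vehicle. A fit of the vehicle comparison without VBA- vehicle replicate 1 called 44 genes higher and 19 lower in VBA-, fkbp5 among the 19. In the library left out, 41 of the 44 were above and 14 of the 19, without fkbp5, were below all VBA+ vehicle libraries. Over all genes tested 19.1% were above and 19.8% below them there. Most of these genes thus lay outside the VBA+ range in that library, in the direction of the other VBA- pools, while fkbp5 did not. The genes were chosen against these same VBA+ libraries. Their level was not compared with that of the other VBA- pools, and whether the pool was partly mixed was not tested. For VBA- cortisol replicate 1, 31 of the 37 genes called higher in vehicle were above all VBA+ cortisol libraries and 5 of the 14 called lower were below them. Over all genes tested 36.4% were above and 33.0% below in this library, so the 5 of 14 is near the share of all genes. The other VBA- cortisol libraries had 21 to 35 of the 37 and 7 to 11 of the 14. Their shares over all genes tested were 17.8% to 38.1% above and 17.9% to 35.0% below. Why fkbp5 was high in these pools was not tested.

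Expression of fkbp5 thus spread widely among pools of the mutant. In vehicle this came from replicate 1 (420 against 38 to 64), and in cortisol mainly from replicates 1 (494) and 4 (10). The SD of fkbp5 on the log2 scale was 1.53 in VBA- vehicle and 2.33 in VBA- cortisol libraries (n = 4 each), against 0.26 and 0.39 in the VBA+ groups. Of the 13772 genes with a mean of at least 75 normalized counts, 6 had a larger SD than fkbp5 in VBA- vehicle and 10 in VBA- cortisol libraries. That mean is over all 16 libraries, and fkbp5 itself was under 75 in VBA- vehicle replicates 2 to 4 and VBA- cortisol replicate 4. In the VBA+ groups 18.1% and 8.87% of these genes had a larger SD. Over the 8 VBA- libraries the highest fkbp5 value was 49.4 times the lowest, compared with 2.82 times for nr3c1 and 2.14 times for nr3c2. Over the 8 VBA+ libraries these ratios were 2.08 for fkbp5, 1.33 for nr3c1 and 1.91 for nr3c2. The SD of nr3c1 was 0.43 and 0.57 in the VBA- groups in vehicle and cortisol, where 8.07% and 19.7% of these genes had a larger SD, and 0.16 and 0.09 in the VBA+ groups. The median SD of these genes was itself higher in VBA- libraries, at 0.19 in vehicle and 0.31 in cortisol, than in VBA+ libraries, at 0.15 and 0.18.

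Loss of GR function was first compared in vehicle. The nr3c1 difference (VBA- minus VBA+) was -0.52 ± 0.19 (SE, 4 libraries per group, 95% confidence interval -0.95 to -0.10), and limma gave an adjusted p of 0.276. For fkbp5 the difference was -2.28 ± 0.59 (SE), with an interval of -3.60 to -0.96 and an adjusted p of 0.156 in limma. The nr3c2 difference was 0.13 ± 0.22 (SE) with an interval of -0.36 to 0.62 and an adjusted p of 0.830. Thus 0 of the 3 genes were called by limma (adjusted p of at most 0.05, absolute log2 difference of at least 0.5, SE under 1 and mean of at least 75), and 2 of 3, nr3c1 and fkbp5, had an unadjusted p under 0.05. Over all genes tested 14.0% had an unadjusted p under 0.05, and 0.171% were called higher and 0.0646% lower in VBA-.

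Whether fkbp5 was called in vehicle turned on replicate 1. Without VBA- vehicle replicate 1 the fkbp5 difference was -3.02 ± 0.21 (SE) and was called, with an adjusted p of 0.0013 in limma. With every library kept, the adjusted p under the other fits ranged from 0.0522, with a block for replicate number, to 0.363. The same block raised the number of genes called in this comparison from 51 to 195 and did not change the call of any of the 3 genes. Within replicates 1 and 2 the fkbp5 means differed by -1.35 and within replicates 3 and 4 by -3.21 (2 libraries against 2, no test). For nr3c1 these differences were -0.73 and -0.32, in the same direction.

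In cortisol the same comparison gave an nr3c1 difference of -0.93 ± 0.25 (SE, 95% confidence interval -1.50 to -0.37), with an adjusted p of 0.514 in limma although the libraries did not overlap. For fkbp5 it was -2.71 ± 0.96 (SE, interval -4.88 to -0.54, adjusted p 0.591 in limma). The nr3c2 means differed by 0.03 ± 0.23 (SE, interval -0.49 to 0.56), with an adjusted p of 0.955 in limma. Called genes made up 0% of the genes tested in each direction here, while 1701 had an unadjusted p under 0.05, among them nr3c1 and fkbp5. The nr3c1 and fkbp5 differences were larger within replicates 3 and 4 than within replicates 1 and 2, being -1.34 against -0.52 for nr3c1 and -4.32 against -1.10 for fkbp5. Within replicates 1 and 2 the VBA+ and VBA- cortisol pools had first-component scores of opposite sign. The part of that component in these differences was not tested.

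Cortisol was then compared with vehicle within each genotype, in comparisons that share libraries with those of genotypes above. In VBA+ larvae nr3c1 differed by 0.15 ± 0.10 (SE, cortisol minus vehicle), nr3c2 by 0.34 ± 0.18 and fkbp5 by 0.42 ± 0.19. The 95% confidence intervals were -0.07 to 0.36, -0.05 to 0.74 and -0.01 to 0.84, and the adjusted p in limma was 0.300, 0.199 and 0.151. None of the 3 was called, and 0 had an unadjusted p under 0.05. Of all genes tested in this comparison 34.6% had such a p, 3.6% were called higher and 4.63% lower. In VBA+ cortisol libraries fkbp5 was at or above 608 normalized counts in replicates 2 to 4, above all vehicle libraries, and at 391 in replicate 1. Without that library the fkbp5 difference was 0.61 on the log2 scale and limma gave an adjusted p of 0.0563, the lowest among its alternatives.

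In VBA- larvae the cortisol differences were -0.26 ± 0.30 (SE) for nr3c1, 0.25 ± 0.27 for nr3c2 and -0.01 ± 1.13 for fkbp5, and limma gave each an adjusted p of 1.00. The fkbp5 interval, -2.55 to 2.52, is so wide that neither a rise nor a fall of several fold could be detected. Called genes were 0% of those tested in each direction, with 389 at an unadjusted p under 0.05 and none of the 3 among them. The sign of the fkbp5 difference depended on single pools, being 0.73 without VBA- vehicle replicate 1 and 1.03 without VBA- cortisol replicate 4. The genotype by cortisol interaction (cortisol effect in VBA- minus that in VBA+) was -0.41 ± 0.34 (SE) for nr3c1, -0.09 ± 0.32 for nr3c2 and -0.43 ± 1.24 for fkbp5. Adjusted p-values in limma were 0.728, 0.930 and 0.915, and 0.00461% of the genes tested were called.

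**Figure D2:**
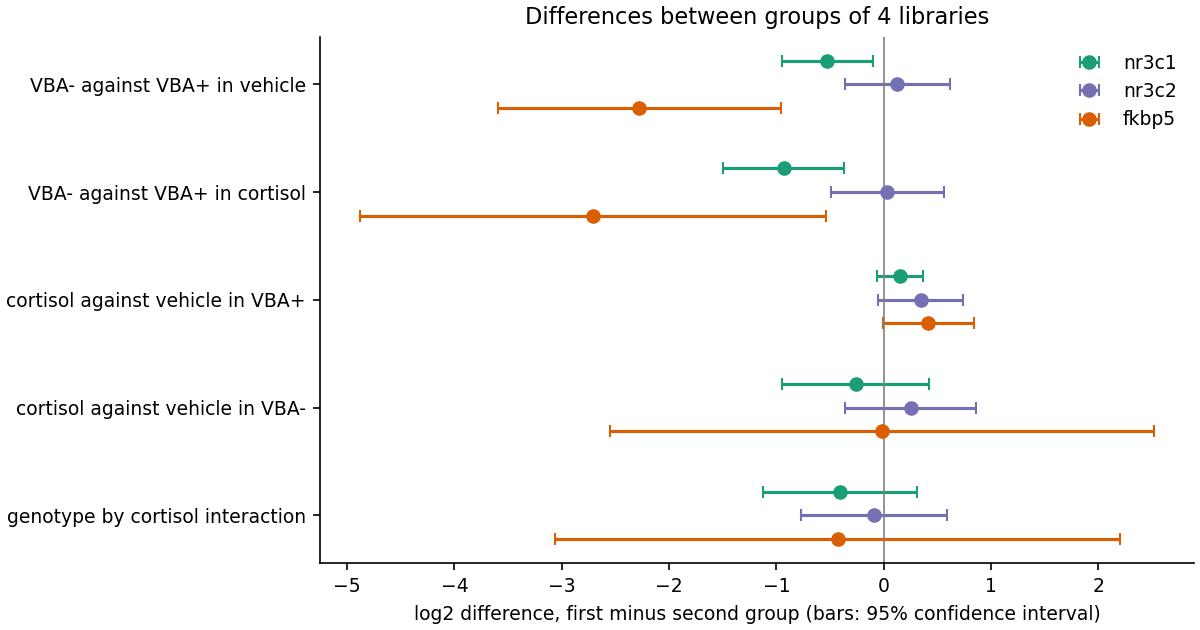
Log2 differences of nr3c1, nr3c2 and fkbp5 in the 4 comparisons of 4 libraries with 4 and in the interaction (VBA- effect minus VBA+ effect), with 95% confidence intervals from limma. The intervals of nr3c1 and fkbp5 lie below 0 in both genotype comparisons before adjustment over all genes, and that of fkbp5 in VBA- larvae with cortisol runs from -2.55 to 2.52.

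The order of the group means differed among the genes. From high to low, nr3c1 ran from VBA+ cortisol (mean log2 value 9.48 ± 0.09, SD) through VBA+ vehicle (9.33 ± 0.16) and VBA- vehicle (8.81 ± 0.43) to VBA- cortisol (8.55 ± 0.57). For fkbp5 the order was VBA+ cortisol (9.18 ± 0.39), VBA+ vehicle (8.77 ± 0.26), VBA- vehicle (6.49 ± 1.53) and VBA- cortisol (6.47 ± 2.33). For nr3c2 it was VBA- cortisol (5.78 ± 0.41), VBA+ cortisol (5.75 ± 0.21), VBA- vehicle (5.53 ± 0.37) and VBA+ vehicle (5.40 ± 0.21). In two-sided exact permutation tests over the 18 pairs of groups, the smallest raw p that 4 libraries against 4 allow, 0.0286, was reached by nr3c1 in VBA+ cortisol against each VBA- group and by no neighbours in these orders. After Benjamini-Hochberg adjustment the lowest value was 0.193, but 11 of the 18 pairs would have had to reach the smallest p for any to pass 0.05, so the adjusted values say nothing about whether groups differ.

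Pools were next compared with each other within a genotype, after each value had its group mean subtracted. Over the 8 VBA- libraries nr3c1 and fkbp5 had a Pearson r of 0.79 (exact permutation p 0.0521 within groups) and a Spearman rho of 0.76 (exact permutation p 0.0556). Among the 6 relations computed the Benjamini-Hochberg adjusted values were 0.312 and 0.292, so the relation did not pass the correction. A block for replicate number lowered r to 0.36 (exact permutation p 0.668), and the fkbp5 values of replicates 1 to 4 fell in the same order in both treatments. In cortisol the 4 VBA- pools fell in the same order for both genes, with replicate 1 highest and replicate 4 lowest. That order was known from earlier results, so in cortisol the relation describes a known pattern and its p-values are no independent test. In vehicle the pool highest in nr3c1, replicate 3 with 643, had 63 normalized counts of fkbp5, and the next pool in nr3c1, replicate 1 with 511, had 420. Leaving out the 2 libraries farthest from the median of nr3c1, VBA- cortisol replicates 1 and 4, lowered r to 0.41 (exact permutation p 0.667), so that the relation rested on those pools. Without VBA- vehicle replicate 3, the pool off this order, r was 0.98 (exact permutation p 0.0069, the lowest of 15 alternatives). The groups are too small for a value within replicates 1 and 2 or 3 and 4.

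Over the 8 VBA+ libraries nr3c1 and fkbp5 had an r of -0.16 (rho 0.00, exact permutation p 0.701 and 1.00, adjusted 0.701 and 1.00), over ranges of 580 to 772 and 342 to 711 normalized counts. Whether the relation differs between genotypes was not tested. For nr3c2 and fkbp5 the r was -0.55 in VBA- libraries (rho -0.69, exact permutation p 0.220 and 0.0990, adjusted 0.372 and 0.292), and a block for replicate number turned it to 0.76 (exact permutation p 0.269). In VBA+ libraries the r was -0.70 (rho -0.53, exact permutation p 0.108 and 0.229, adjusted 0.323 and 0.344). Leaving out the 2 libraries farthest from the median of nr3c2 gave -0.94 and -0.92, and subtracting the score on the first principal component gave -0.12 in VBA- libraries. The receptor genes had an r of -0.51 in VBA- libraries (rho -0.62, exact permutation p 0.248 and 0.146, adjusted 0.372 and 0.292) and of 0.31 in VBA+ libraries (rho 0.36, exact permutation p 0.538 and 0.458, adjusted 0.646 and 0.550). Without the 2 libraries farthest from the median of nr3c1 these were -0.44 and -0.02.

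**Figure D3:**
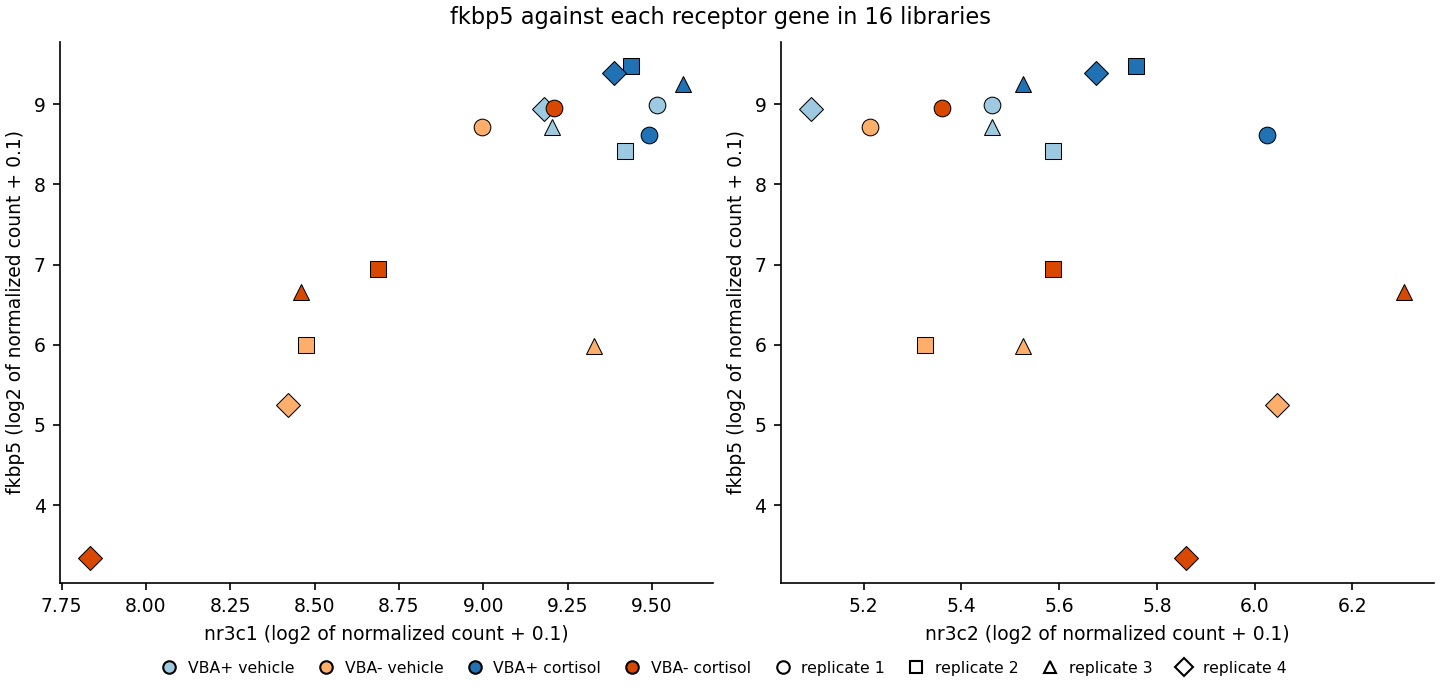
Log2(normalized count + 0.1) of fkbp5 against nr3c1 (left) and nr3c2 (right) in the 16 libraries, coloured by group with a marker shape per replicate number. The VBA+ libraries form a compact cloud at high nr3c1 and fkbp5, VBA- cortisol replicate 4 is lowest in both genes (228 and 10 normalized counts), and VBA- vehicle replicate 3 combines 643 of nr3c1 with 63 of fkbp5.

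Likeness to other genes was described over the genes with a mean of at least 75 normalized counts, with Pearson r and no test. Across all 16 libraries, which include the difference between genotypes, fkbp5 was the fifth most alike to nr3c1 (r 0.87), after ENSDARG00000117546 (0.90), pfkm, a muscle phosphofructokinase (0.89), urgcp (0.89) and si:ch211-219a15.4 (0.87). Conversely nr3c1 was the fourth most alike to fkbp5, after pik3r3a (0.88), urgcp (0.87) and si:dkey-83h2.2 (0.87), and before rhcg (0.86), an ammonium transporter. The genes most like nr3c2 were usf3 (0.91), kdm6b, a histone demethylase (0.90), map2k4 (0.90), mgaa (0.89) and nav1 (0.89).

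Within the 8 VBA- libraries, after group means were subtracted, 436 of 13757 genes had a higher r with nr3c1 than fkbp5 had, which is 3.17%. The most alike were angptl4, a secreted lipase inhibitor (0.98), iars1 (0.97), si:dkey-65b13.11 (0.96), crp5 (0.96) and si:dkeyp-116a7.2 (0.96). For fkbp5 they were lmnb2, a nuclear lamin (0.97), kif23 (0.97), cplx3 (0.97), dhx32 (0.97) and rrm1, a ribonucleotide reductase subunit (0.97). For nr3c2 they were rps6ka4 (0.98), efnb3 (0.98), cblb (0.98), ireb2 (0.98) and tex2 (0.98). These values rest on 8 pools that share the axes of variation described above. The glucocorticoid-induced genes klf9, a Krüppel-like transcription factor, and tsc22d3, which encodes GILZ in mammals, had an r of 0.88 and 0.83 with fkbp5.

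The klf9 gene (ENSDARG00000068194) also had its highest VBA- cortisol value in replicate 1, at 745 normalized counts, against 360, 286 and 173 in replicates 2 to 4. VBA+ cortisol libraries had 434, 536, 790 and 854, so replicate 1 alone was inside their range. For tsc22d3 (ENSDARG00000075666) the VBA- cortisol libraries had 1421, 975, 836 and 772, and VBA+ cortisol libraries 1204 to 1506. In vehicle klf9 was at 242, 188, 145 and 194 in VBA- and 230 to 327 in VBA+ libraries. Again replicate 1 was the only VBA- pool inside the VBA+ range, as it was for tsc22d3 in vehicle, with 916 against a VBA+ range of 901 to 996. Other genes of the glucocorticoid-induced list described below went the other way in cortisol. VBA- cortisol libraries 1 to 4 had 705, 541, 1212 and 1561 normalized counts of sgk1 (ENSDARG00000025522). For zbtb16 (ENSDARG00000007184) they had 64, 49, 323 and 240. In replicate 1, 7 of the 17 genes of that list were below all VBA+ cortisol libraries, near the share of all genes tested (33.0%).

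**Figure D4:**
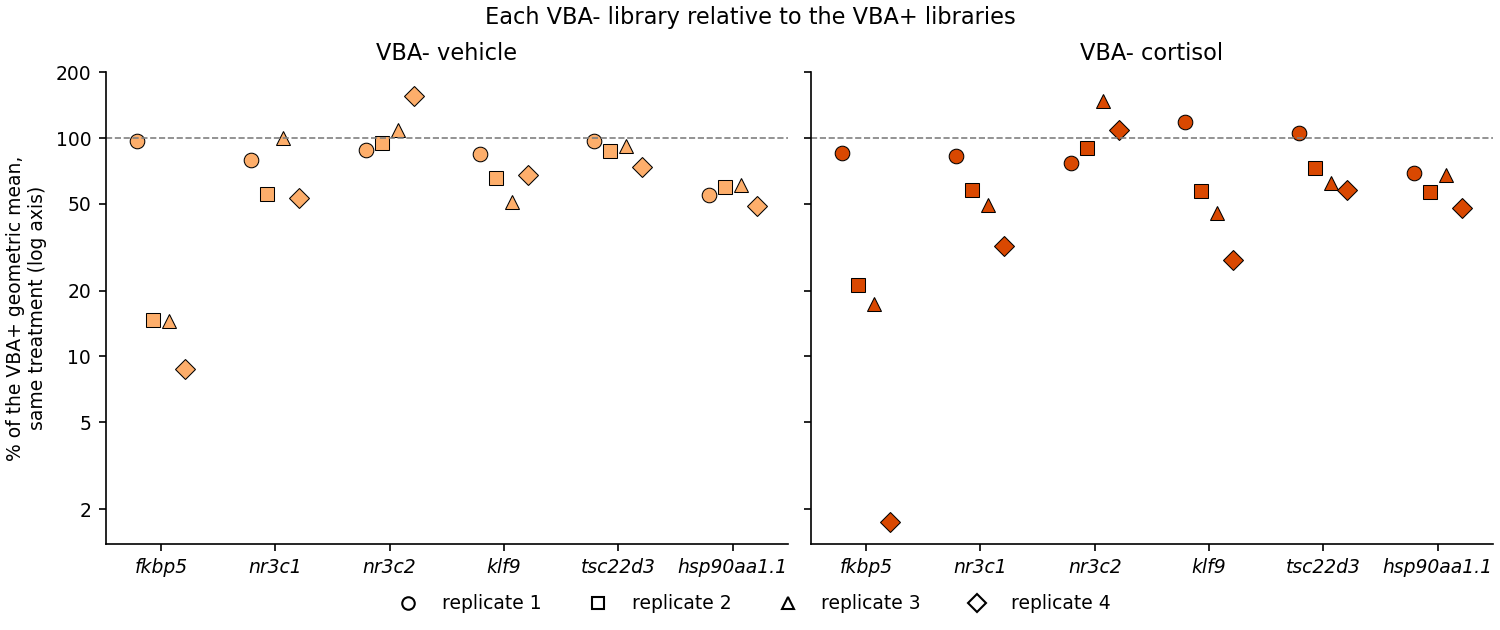
Level of fkbp5, nr3c1, nr3c2, klf9, tsc22d3 and hsp90aa1.1 in each VBA- library, as % of the geometric mean of the VBA+ libraries of the same treatment (log axis, dashed line at 100), with a marker shape per replicate number. Replicate 1 lies at 85.1% to 118% for fkbp5, klf9 and tsc22d3 in cortisol and at 84.7% to 97.0% in vehicle, while hsp90aa1.1 lies at 47.8% to 69.2% in all 8 libraries.

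Partners of the receptor were described by lists. Among 21 chaperone and co-chaperone genes of steroid receptors, fkbp5 included, 1 was called lower and 0 higher in VBA- larvae in vehicle. Of all genes tested 0.0646% were called lower and 0.171% higher. The median log2 difference of the 21 genes was -0.11 against -0.02 over all genes tested. In 5 of the 21 the VBA- vehicle libraries lay below all VBA+ vehicle libraries, as did 3.6% of all genes tested. An unadjusted p under 0.05 in limma was found for 8 of the 21, all lower, and for 14.0% of all genes. In cortisol the counts were 3 of 21 against 1.76% and 6 of 21, all lower, against 7.84%. The called gene was hsp90aa1.1 (ENSDARG00000010478), an Hsp90 alpha gene with high expression in zebrafish muscle. VBA- vehicle libraries had 1061, 1148, 1175 and 940 normalized counts of it and VBA+ vehicle libraries 1802, 2066, 1884 and 1992. The difference was -0.84 ± 0.09 (SE) with an adjusted p of 0.0128 in limma. Leaving out VBA+ vehicle replicate 2, 3 or 4 ended the call, with adjusted p-values of 0.0602 to 0.0758, as did a fit without the trend (0.0939). In cortisol the values were 1212, 990, 1184 and 836 in VBA- and 2016, 1802, 1421 and 1820 in VBA+ libraries, again without overlap, but with an adjusted p of 0.483 in limma. Unlike fkbp5, its VBA- replicate 1 values were below all VBA+ libraries of the same treatment.

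With cortisol in VBA+ larvae 1 of the 21 chaperone genes was called higher and 1 lower, near the shares of all genes tested (3.6% and 4.63%). The gene called higher was hsp90ab1, the constitutive Hsp90 beta gene, which rose by 0.75 ± 0.18 (SE, adjusted p 0.0264 in limma). Its VBA+ libraries had 71716, 47665, 37956 and 37956 normalized counts in cortisol and 26492 to 29419 in vehicle. The same values recur exactly in other libraries, 71716 also in VBA- cortisol replicate 3. Normalization by full quantiles gives each rank a fixed value, and at this height the steps are wide. The size of the rise and its SE therefore reflect rank steps. The p23 co-chaperone gene ptges3 (ENSDARG00000089626) was called lower, by -0.52 ± 0.09 (SE, adjusted p 0.0114 in limma), with 408 to 460 normalized counts in cortisol and 588 to 686 in vehicle. Of the 17 FK506-binding protein genes, none was called higher with cortisol in VBA+ larvae and 1 was called lower, again near the 4.63% of all genes. This was fkbp7, an endoplasmic reticulum family member, whose cortisol minus vehicle value was -0.98 ± 0.21 (SE, adjusted p 0.0194 in limma). Its libraries had 61 to 103 normalized counts in cortisol and 124 to 198 in vehicle. In the comparison of genotypes in vehicle 0 of the 17 were called in limma, where 0.171% of all genes were called higher and 0.0646% lower. An unadjusted p under 0.05 was found for 2, fkbp5 among them, and for 14.0% of all genes tested. In VBA- larvae cortisol gave 0 calls and 0 unadjusted p-values under 0.05 in both lists. Over all genes tested 0% were called there and 1.79% had such a p.

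Genes that glucocorticoids are known to induce gave a reference for fkbp5. Of 17 such genes, fkbp5 included, limma called 10 higher and 0 lower with cortisol in VBA+ larvae, with a median log2 difference of 0.51 against -0.01 over all genes tested, of which 3.6% were called higher. In 12 of the 17 the cortisol libraries lay above all vehicle libraries, as did 8.44% of all genes tested. The largest of these rises was that of klf9, at 1.14 ± 0.21 (SE, adjusted p 0.0133 in limma), from 230 to 327 normalized counts in vehicle to 434 to 854 in cortisol. The phosphatase gene dusp1 (ENSDARG00000100515) rose by 1.03 ± 0.12 (SE), from 472 to 560 normalized counts in vehicle to 892 to 1267 in cortisol. The kinase gene sgk1 (ENSDARG00000025522), which also responds to MR in mammals, rose by 0.96 ± 0.16 (SE), from 492 to 762 in vehicle to 966 to 1390 in cortisol. The other called genes were zbtb16 (ENSDARG00000007184), pck1, errfi1, ddit4, tat, cebpd and tsc22d3, with rises of 0.51 to 0.83 on the log2 scale. The fkbp5 difference of 0.42 was the thirteenth of the 17. Organ markers moved in the same comparison, prss1 being called higher (2408 to 6554 normalized counts in vehicle and 7043 to 10704 in cortisol) and the rho copy ENSDARG00000111860 lower (123 to 163 and 58 to 101), and their part in these counts was not tested. With all 16 libraries in the fit 21 of all genes were called in place of 1783, and klf9 was not among them (adjusted p 0.134 in limma).

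With cortisol in VBA- larvae limma called 0 of the same 17 genes, and 2 had an unadjusted p under 0.05. Over all genes tested 0% were called in each direction and 1.79% had such a p. The median difference was 0.27 against -0.01 over all genes tested, and 15 of the 17 differences were above 0. The dusp1 gene was the only list member whose libraries did not overlap, with 1221, 800, 778 and 732 normalized counts in cortisol and 568, 530, 503 and 492 in vehicle. Such separation was seen in 0.682% of all genes tested. In the interaction 0 of the 17 were called, and errfi1, a feedback inhibitor of EGF receptor signalling, was the only one with an unadjusted p under 0.05. Over all genes tested 0.00461% were called and 5.25% had such a p, so 1 of 17 is near the share of all genes. Between genotypes in vehicle limma called 0 of the 17 in either direction, where 0.171% of all genes were called higher and 0.0646% lower. The study, which tested the same libraries with DESeq2, reported klf9 and per1a as underexpressed in VBA- larvae. The median difference of the 17 was -0.02, as it was over all genes tested when both are rounded to 2 decimals. An unadjusted p under 0.05 was found for 6 of the 17 and for 14.0% of all genes tested. Values in VBA- libraries were lower in 4 of the 6, fkbp5, klf9, a per1 gene (ENSDARG00000056885) and ddit4, and higher in the others, zbtb16b (0.69) and tat (0.42). The fkbp5 difference of -2.28 was several times those of klf9 (-0.60), per1 (-0.49) and ddit4 (-0.56).

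**Figure D5:**
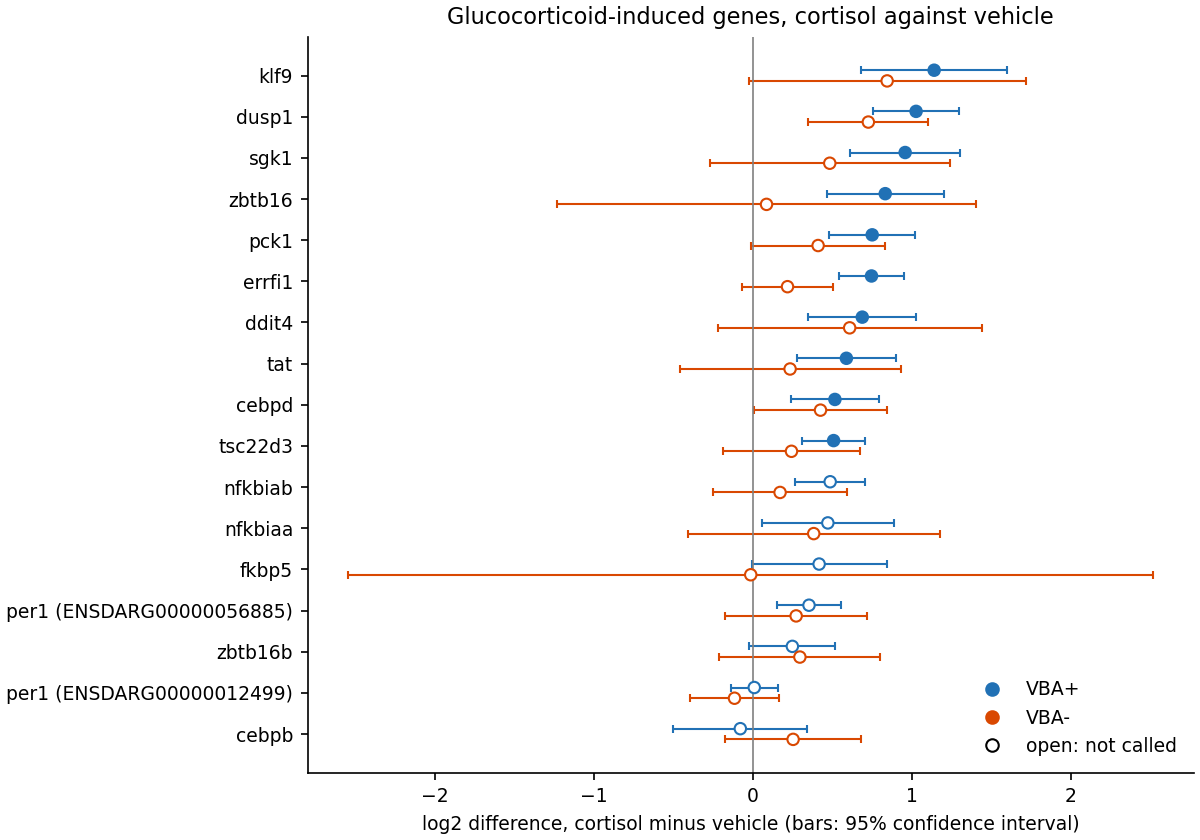
Log2 differences between cortisol and vehicle for 17 glucocorticoid-induced genes in VBA+ and VBA- larvae (4 libraries against 4 in each), with 95% confidence intervals. Filled points are called: 10 genes in VBA+ and 0 in VBA-, where 0% of all genes tested were called. The fkbp5 gene has by far the widest VBA- interval, -2.55 to 2.52.

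Single VBA- pools were set against the VBA+ libraries of their treatment over this list. In cortisol, 7 of the 17 genes in replicate 1 were below all VBA+ libraries, compared with 13, 10 and 10 in replicates 2 to 4. The median distance from the VBA+ mean was 0.04 on the log2 scale in replicate 1 and -0.36, -0.38 and -0.50 in the others. In vehicle, 3 of the 17 were below all VBA+ libraries in replicate 1 and 6, 7 and 7 in replicates 2 to 4, while the medians were between -0.08 and -0.04 in all 4 pools. Over all genes tested the cortisol pools had 17.9% to 35.0% of genes below all VBA+ libraries. Replicate 1 had 33.0%, so its 7 of 17 is near the share of all genes. In vehicle replicates 1 to 4 these shares were 19.8%, 23.6%, 25.6% and 30.7%, so the 3 of 17 in replicate 1 is near the share of all genes.

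Coregulators of nuclear receptors and enzymes that inactivate cortisol completed the lists. Of 17 coregulator genes, 2 were called higher with cortisol in VBA+ larvae, where 3.6% of all genes were, among them the corepressor gene ncor1 (0.50 ± 0.12, SE), with an adjusted p of 0.0290 in limma. Its VBA+ libraries had 892 to 1266 normalized counts in cortisol, against 682 to 792 in vehicle. With cortisol in VBA+ larvae an unadjusted p under 0.05 was found for 9 of the 17, all higher, and for 34.6% of all genes tested. None of the 17 was called by limma in the other comparisons. Such a p was found for 1 gene between genotypes in vehicle and for 0 elsewhere. Over all genes tested the shares with such a p were 14.0% between genotypes in vehicle and 7.84% in cortisol. They were 1.79% with cortisol in VBA- larvae and 5.25% in the interaction. At most 0.171% of all genes were called higher or lower in any of these comparisons. In VBA+ vehicle libraries hsd11b2 had 225 to 321 normalized counts and hsd20b2 had 216 to 286, and VBA- vehicle libraries had 140 to 232 and 162 to 277. Neither enzyme gene was called in any comparison. Of 7 steroid receptor genes listed 6 were tested and 2, nr3c1 and the androgen receptor gene ar, reached the mean that a call requires. The estrogen receptor genes esr1 (ENSDARG00000004111) and esr2 (ENSDARG00000016454) had 0 to 12 and 1 to 16 normalized counts in single libraries, too few to compare between groups. Another gene with the esr2 symbol, ENSDARG00000034181, had 15, 20, 26 and 24 normalized counts in VBA- vehicle and 43, 40, 34 and 40 in VBA- cortisol libraries, without overlap (0.91 ± 0.25, SE, unadjusted p 0.0047 and adjusted p 1.00 in limma). Among all genes tested 0.682% were separated in that way. VBA+ libraries of this gene had 23 to 50 in vehicle and 44 to 53 in cortisol. In cortisol all VBA- libraries were thus below all VBA+ libraries, as for 1.76% of all genes tested. The difference between genotypes in vehicle was -0.80 ± 0.30 (SE, adjusted p 0.285 in limma). With a mean of 36.3 the gene could not be called.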

How the data were processed

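Libraries were sequenced as paired-end reads. Per the labels and the methods of the study, reads were trimmed with Trimmomatic (0.36 in the submitters' processing notes), aligned with STAR 2.6.1b to GRCz11 and summarised per gene with RSEM 1.3.0. The authors then normalized with EDASeq, within libraries on GC content and between libraries by full quantiles, and deposited log2 values of the normalized count plus 0.1. Converted back, 100% of these are whole numbers (tolerance 1e-06), with the same sum and 310 zeros in every library, so depth is unknown and precision rests on 4 pools per group. The authors' tests used DESeq2 1.24.0, which needs counts. Differences were therefore fitted here with limma 3.58.1 (R 4.3.3, eBayes with trend), on the 8 libraries of a comparison or on all 16 for the interaction, with Benjamini-Hochberg adjustment over genes with a mean of at least 5 normalized counts. The limits of a call are those the study states, although its gloss on the mean of 75, an average of 5 per sample, implies a lower limit.

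The 3 genes and all lists were chosen with earlier results of these data known. Named list genes are those called in a pairwise comparison, or in lists with none the 2 with the largest differences in vehicle. Genes most alike are the 5 with the highest r, and genes named for lying above all vehicle libraries, for an unadjusted p, for sharing the esr2 symbol or for a likeness to fkbp5 were chosen after their values were seen. Symbols come from a table that covered 21794 identifiers, are written here in lower case, and copies sharing a symbol are given by identifier and may share reads. Correlations used 576 exact rearrangements within groups. In vehicle, the deviations of same-numbered VBA- and VBA+ libraries from their group means correlated across genes (0.253, 0.212, 0.309 and 0.235, limit 0.1). Same-numbered libraries thus shared part of their deviations. The study describes no pairing of pools across groups, so the block for replicate number is an alternative and not the main fit. In each of the other comparisons 1 or more correlations were below 0.1. With cortisol against vehicle in VBA- larvae they were 0.288, 0.657, 0.0782 and 0.670. Most same-numbered VBA- libraries thus also shared part of their deviations across treatments. The exact rearrangements treat the treatments as independent and do not allow for that sharing. Between genotypes in cortisol all were negative, at -0.601, -0.590, -0.449 and -0.625, so same-numbered libraries deviated in opposite directions there. The limma step was tested on simulated data, and 0 columns were left unused. Libraries of a group correlated at 0.890 to 0.973 and none were identical. Alternatives were other pseudocounts, filters, variance models, blocks and leaving out each library. Leaving out replicate 1 of both VBA- groups and removing the first component were added after seeing the data. The values of 1 coregulator gene are not reported here.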

Additional observations from a re-analysis of the deposited data

Results flagged for a closer look

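Of 92 combinations of a gene and a group (23 genes, 4 groups of 4 libraries) 3 held a library far from the others by Dixon's criterion, which marks about 1 in 20 groups by chance. They concern list genes, and none of nr3c1, nr3c2 and fkbp5 was among them. In VBA+ cortisol replicate 3, esr1 (ENSDARG00000004111) was at 0 normalized counts, a log2 value of -3.32, against 6 to 12 normalized counts in the other libraries. In VBA- cortisol replicate 2, esr1 was also at 0 (-3.32 against 2.04 to 2.61). In VBA+ cortisol replicate 2, errfi1 (ENSDARG00000104039) had a log2 value of 8.40 against 8.18 to 8.21 in the others.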

How the results depend on the processing

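Every p-value rests on 4 pools per group, and 1 pool decided several values. No alternative called nr3c1 or nr3c2 in any comparison, and fkbp5 was called in 1 alternative, without VBA- vehicle replicate 1 (-3.02). Differences that changed sign were near 0, except the fkbp5 interaction (-0.43). With a pseudocount of 1 the fkbp5 difference with cortisol in VBA- larvae was 0.0030 (and -0.0030 as vehicle minus cortisol). With single libraries left out, differences between VBA- and VBA+ ranged from -0.70 to -0.40 for nr3c1, from -0.046 to 0.23 for nr3c2 and from -3.02 to -1.87 for fkbp5 in vehicle. In cortisol they ranged from -1.15 to -0.69, from -0.14 to 0.17 and from -3.53 to -1.66. Cortisol against vehicle in VBA- ranged from -0.84 to 1.03 for fkbp5, and the interaction from -0.27 to 0.079 for nr3c2 and from -1.26 to 0.61 for fkbp5. The cause of these moves was not tested.

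The correlation of nr3c1 and fkbp5 in VBA- libraries was 0.76 without centring on groups (exact permutation p 0.0289), 0.68 with the first component removed, 0.71 without replicate 1 of both VBA- groups and 0.36 with a replicate block. It ranged from 0.59 to 0.98 with single libraries left out. In VBA+ libraries it was 0.21 without centring and 0.25 with a replicate block, and ranged from -0.52 to 0.00474. For nr3c2 and fkbp5 in VBA- libraries it was 0.76 with a replicate block and ranged from -0.76 to -0.36. For nr3c1 and nr3c2 in VBA+ libraries it was -0.023 without the 2 farthest libraries and -0.45 with a replicate block, and ranged from -0.10 to 0.64.

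Genes called in vehicle between genotypes numbered 51, and 8 with no filter, 1 without the trend, 16 with all 16 libraries in the fit, 195 with a replicate block and 363 with a term that set replicates 1 and 2 apart from 3 and 4. In cortisol they numbered 0, and 10 with all libraries in the fit and 1 with that term. With cortisol in VBA+ larvae they numbered 1783, and 619 without the trend, 21 with all libraries and 6 with a replicate block. In VBA- larvae they numbered 0, and 5 with all libraries and 2 with that term. The interaction had 1, and 0 with no filter or a replicate block. With single libraries left out these counts ranged from 1 to 63, 0 to 2, 414 to 2925, 0 (in each case) and 0 to 1. The replicate block changed no call of the 3 genes.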
